A study of Camelina sativa with 159 samples.

Results

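Among the gene models counted in leaves of 48 accessions of Camelina sativa, 59 had a higher level in each of 4 late-flowering accessions than in any of the 44 earlier ones. They were chosen by these levels. The reads of an accession's libraries were summed and scaled to counts per 1000000 of the accession's total (CPM), rows with a mean of 0.5 CPM or more over the 48 accessions were kept, and a row was taken when its lowest CPM among CN 113660, CN 113691, CN 113692 and CN 113662 lay above its highest CPM among the other 44. Of 94495 rows, 50375 reached the minimum, and the 59 are 0.117% of these. The same rule turned round chose 252 rows (0.5%) that were lower in every late accession.

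C. sativa is a hexaploid oilseed crop related to Arabidopsis, and most of its genes exist in several similar copies. In Arabidopsis, floral repressors such as FLC, a MADS box protein, hold down the floral integrators FLOWERING LOCUS T and SOC1 in leaves and at the shoot tip until cold, day length or age releases them. Annual plants that keep such a repressor on flower late, and those with weak alleles flower early.

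All RNA came from leaves of young seedlings of the germplasm accessions themselves, with no treatment, mutant or transgene in the labels. The flowering times in the labels, which are days until 50% of the plants flowered, are 61.9 for CN 113660, 59.4 for CN 113691, 55 for CN 113692 and 52 for CN 113662, and 43 to 47.9 days for the 44 early accessions. CN 113660, CN 113691, CN 113692 and CN 113662 have 3, 3, 2 and 3 libraries, 11 in all with 646716 to 7180908 counts each. The early accessions have 147 libraries. Of the early libraries, 10 in 7 accessions hold 123028 counts or fewer and were left out where single libraries are compared, which leaves 137. Summed totals ran from 4968195 counts in CN 113692 to 30119735. The study's methods speak of biological replicates, but the labels do not say whether the libraries of an accession came from separate plants, so the accession was the replicate in every test on sums. The leaf gene Csa06g036860.1, a chlorophyll a/b-binding protein of photosystem II by the study's annotation, had 1383 to 1959 CPM in the late accessions and 735 to 2776 CPM in the early ones.

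The sources used here pair none of the 59 gene IDs with a name or a function, so the genes are described by ID, level and place. Each of the 59 is the only row of its locus. None of them is among the 11 gene models that the study names for flowering (copies of SOC1, AGL19, AGL103, SDG16, SNZ, SPL15 and SPL4), the 164 genes of its flowering time module, which were chosen on these samples, or the genes beside its flowering time SNPs. The study also reports levels of FLC copies, with a copy that was low in all lines. Copies at its C20 and C13 loci were significantly higher only in lines of its later-flowering haplotypes, a different copy in each. The sources used here give no gene IDs for these copies, so whether any of the 59 is one of them was not determined. In edgeR's quasi-likelihood test of late minus early sums, 8 of those 11 were lower and 0 higher in the late accessions. Of the 164 genes 145 were lower and 0 higher, against 8.28% of all 52307 rows called lower and 6% called higher. The study picked the module for its negative correlation with flowering time in these samples. The copies of SOC1, AGL19, AGL103, SDG16, SNZ and SPL15 among the 11 belong to it. Low levels of its genes in late accessions, and its lack of overlap with the 59, largely follow from that choice. The counts are a description.

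Over the 59 genes some libraries stood apart from their accession. Library Cs040 of CN 113662 lay above every early accession in 15 of the 59 genes, while the other late libraries did so in 44 to 58. Its total of 3667169 counts is close to the 3314746 counts of Cs035 from the same accession, which did so in 47. For 29 of the 59 genes Cs040 was the lowest of the 11 late libraries. Rows chosen without CN 113662 and CN 113672 showed a similar order within CN 113662. Of 254 rows that were higher in the 3 other late accessions than in the 43 other early ones, 32 in Cs040, 95 in Cs035 and 70 in Cs147 lay nearer the late side, past the geometric mean of the lowest late and the highest early CPM, and of 810 rows that were lower, 160, 486 and 209 did. Over these rows Cs147 was at or near the level of some early libraries. Cs103 of CAM 276 had 67 of the 254 on the late side, and Cs052 of CN 113669 had 324 of the 810. Among the early libraries, S001C2D of CN 113672 lay above every early accession's summed level in 25 of the 59 genes, more than Cs040. It did not stand apart over the rows chosen without its accession, where 36 of 254 lay nearer the late side, against 67 in Cs103 of CAM 276 and 60 in Cs052 of CN 113669, the highest early libraries. Without Cs040 the rule took 80 rows, 56 of them among the 59. Without S001C2D it took 56 rows with 52 of the 59, and without both it took 79 rows with 52 of the 59. Why Cs040 and S001C2D differed over the 59 genes was not tested. In 4 genes (Csa01g025360.1, Csa08g055960.1, Csa10g051830.1 and Csa07g060010.1) all 11 late libraries, Cs040 among them, lay above the summed level of every early accession, and in 41 all 11 lay above the median of the early libraries. In 0 genes did all 11 lie above every single early library.

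**Figure D1:**
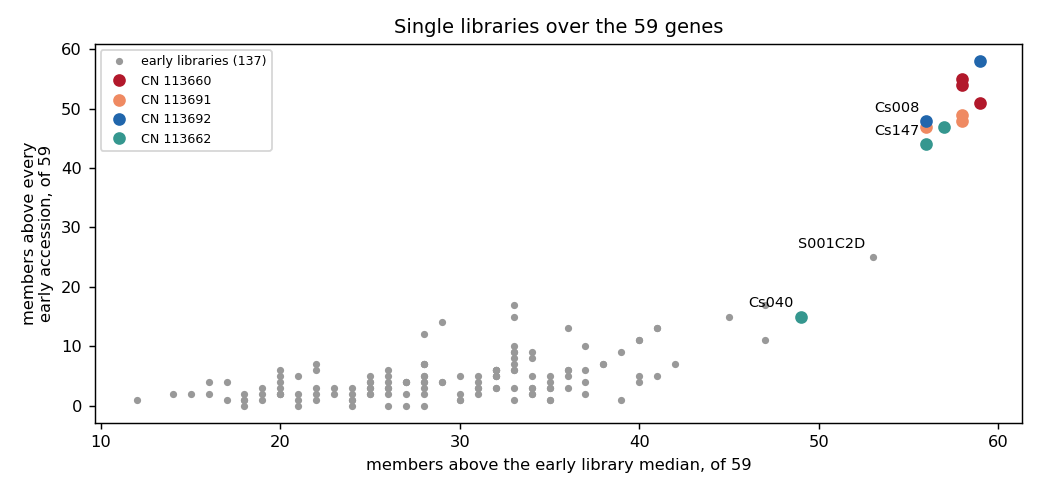
Each point is a library with at least 200000 counts. The horizontal axis counts the genes, of 59, in which the library's CPM lay above the median of the 137 early libraries, and the vertical axis counts those in which it lay above the summed level of every early accession. The late libraries other than Cs040 sit between 44 and 58 on the vertical axis, and Cs040 sits at 15, below the early library S001C2D at 25.

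The gap between late and early accessions was narrow for most of the 59 genes. The ratio of the lowest late to the highest early CPM was 2 or more in 3 genes, 1.5 or more in 7 and under 1.1 in 39. The ratio of the mean CPM of the late accessions to that of the early ones had a median of 2.01 and ran from 1.196 for Csa09g071310.1 to 85.1 for Csa13g011890.1, with 30 genes at 2 or more, 13 at 5 or more and 12 under 1.5. Mean levels in the late accessions ran from 3.35 to 478.5 CPM with a median of 19.0. The 4 late accessions lay within 1.5 times of each other in 33 genes and spread over 5 times or more in 3. Just inside the rule stood Csa08g018120.1 (2.61 against 2.60 CPM), Csa11g012450.1 (130.2 against 129.9 CPM) and Csa05g006660.1 (8.86 against 8.84 CPM). Just outside it stood Csa06g027380.1 (45.9 against 46.0 CPM), Csa05g094590.1 (7.92 against 7.94 CPM) and Csa03g013640.1 (3.41 against 3.42 CPM). In edgeR's fit 58 of the 59 were past an adjusted p of 0.05, beside 6% of all rows called higher in late, and since this contrast chose them the count is a description.

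**Figure D2:**
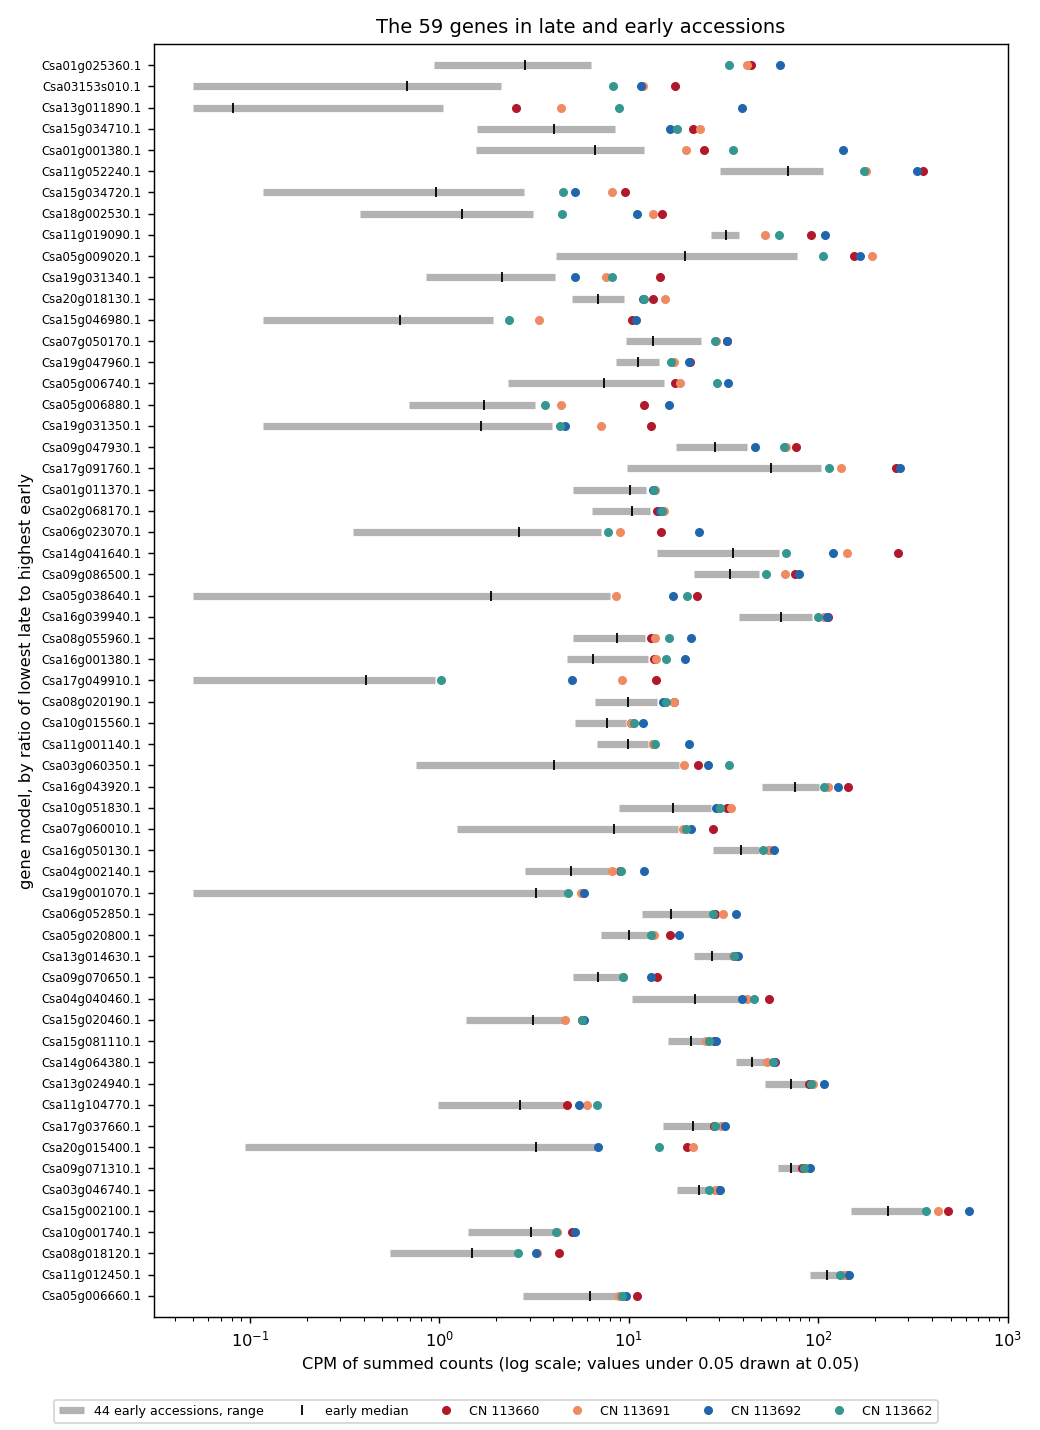
Each line is a gene, ordered by the ratio of its lowest late to its highest early CPM. The grey bar spans the 44 early accessions, the tick is their median and the coloured points are the 4 late accessions, on a log scale of CPM. Genes at the top, such as Csa01g025360.1 with 33.8 CPM or more against 6.32 or less, stand clear of the early range, and most of those below touch its upper end.

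The widest gap belonged to Csa01g025360.1. Its level was 44.3 CPM in CN 113660, 42.1 in CN 113691, 63.2 in CN 113692 and 33.8 in CN 113662, against a median of 2.84 and a highest value of 6.32 CPM in the early accessions. Its late mean of 45.8 ± 12.4 CPM (SD, n = 4) was 14.8 times the early mean of 3.10 ± 1.39 (SD, n = 44). In single libraries it had 24.1 CPM or more in 10 of the 11 late libraries and 6.54 CPM in Cs040. The highest early library was Cs046 of CN 111331 with 14.5 CPM, and S001C2D had 12.2.

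Csa03153s010.1, the only one of the 59 on an unplaced scaffold, followed with 17.5, 11.9, 11.7 and 8.28 CPM in CN 113660, CN 113691, CN 113692 and CN 113662. The early accessions reached at most 2.12 CPM and had a median of 0.68. Within CN 113662 its level came mostly from Cs147 with 14.6 CPM, while Cs035 had 2.71 and Cs040 1.64, both below the 3.25 CPM of the early library Cs046. The late groups therefore overlap the early ones at the level of libraries.

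Csa13g011890.1 was nearly unread in early leaves, with a median of 0.081 CPM, 10 early accessions without a read and a highest value of 1.04 CPM in CN 113672. It had 2.53 CPM in CN 113660, 4.40 in CN 113691, 39.9 in CN 113692 and 8.86 in CN 113662. The late mean was 13.9 ± 17.5 CPM (SD, n = 4), so the spread among late accessions exceeded their mean. The 3 libraries of CN 113662 spread more widely than those of any other late accession. Cs035 held 100 reads (30.2 CPM), near the 40.5 and 35.6 CPM of the libraries of CN 113692, Cs147 held 21 reads (3.09 CPM), near the 2.03 to 5.24 CPM of the 6 libraries of CN 113660 and CN 113691, and Cs040 held 1 read (0.27 CPM). The early library S001C2D held 18 reads (3.20 CPM), within the range of the late libraries, and it supplied the highest early value.

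Csa01g001380.1 and Csa11g019090.1 were read at 2 separate levels among libraries of the same late accession. Csa01g001380.1 had 132 and 153 CPM in the libraries of CN 113692, 83.3 and 28.7 CPM in Cs035 and Cs147 of CN 113662, 51.2 CPM in Cs030 of CN 113691 and 47.1 CPM in Cs038 of CN 113660. In the other 5 late libraries it had 3.20 to 6.93 CPM, against an early library median of 6.69. Summed by accession it had 24.95, 20.1, 134.7 and 35.7 CPM in CN 113660, CN 113691, CN 113692 and CN 113662, all above the early maximum of 12.1.

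Csa11g019090.1 varied little in the early accessions, with 32.4 ± 2.53 CPM (SD, n = 44). In 8 late libraries it had 66.7 to 111 CPM, and in Cs010 and Cs019 of CN 113691 and Cs040 of CN 113662 it had 32.5, 32.2 and 30.5 CPM, near the early library median of 32.3. The sums, 91.8, 52.2, 109 and 62.5 CPM in the order above, were higher than the early maximum of 38.1. Its neighbour Csa11g019100.1, which is not among the 59, was also higher in the late accessions (21.8 ± 8.18 CPM, SD, n = 4, against 7.50 ± 1.29, SD, n = 44, log2 difference 1.56, SE 0.13, edgeR adjusted p = 2.1e-12).

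**Figure D3:**
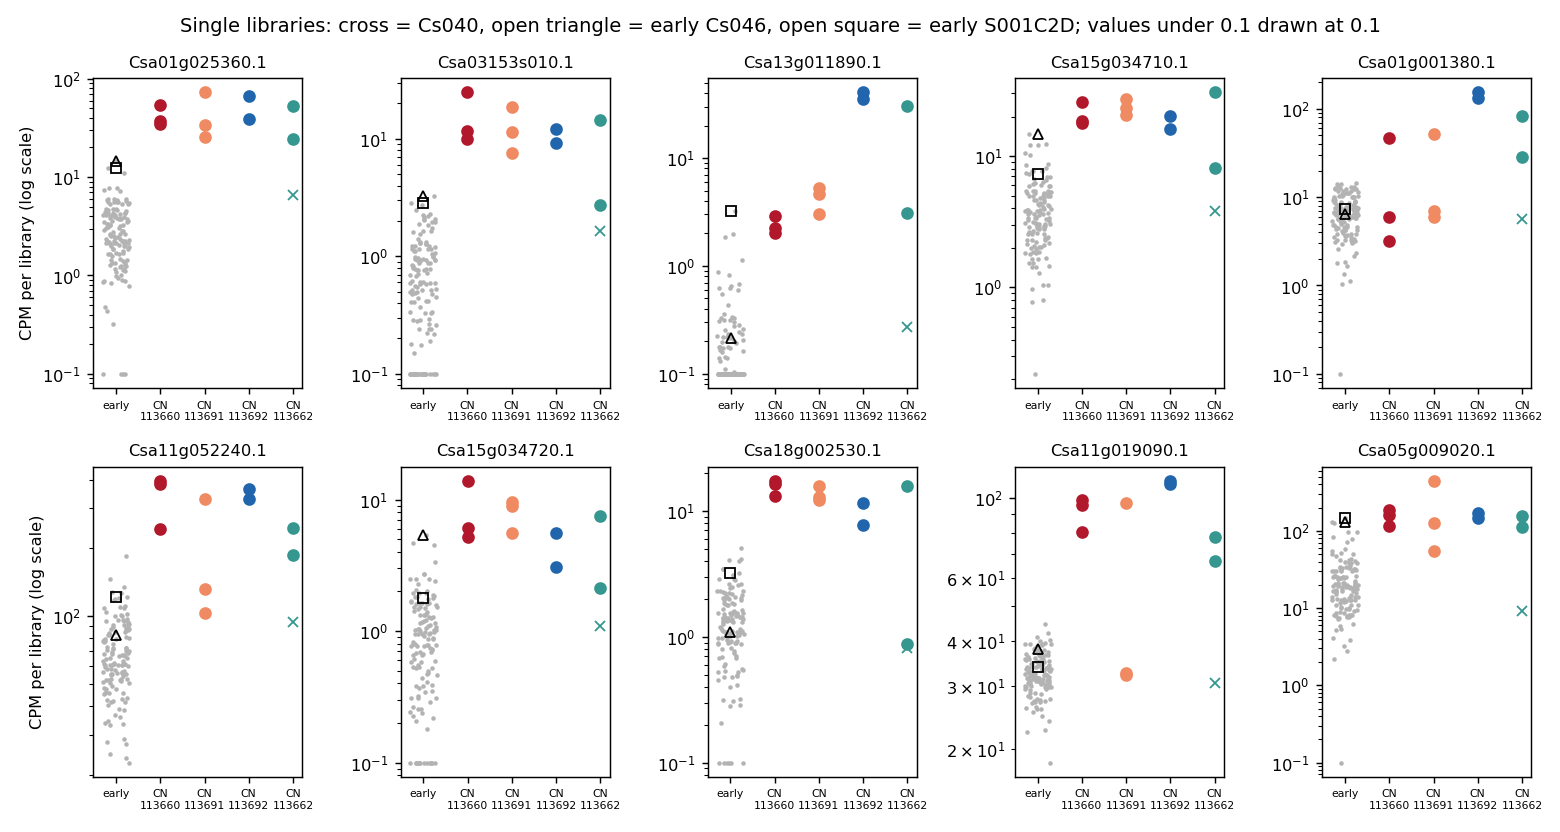
CPM of single libraries on log scales for the 10 genes with the largest ratio. Grey points are the 137 early libraries, coloured points the late libraries by accession, with Cs040 as a cross and the early libraries Cs046 and S001C2D as open symbols. Cs040 lies within the range of the early libraries in all 10 panels, and the panels of Csa01g001380.1 and Csa11g019090.1 show late libraries at both levels.

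In CN 113662, Csa18g002530.1 was read at the early level in 2 of 3 libraries. Summed, it had 15.0 CPM in CN 113660, 13.4 in CN 113691, 11.1 in CN 113692 and 4.43 in CN 113662, against an early maximum of 3.10. Cs035 had 15.7 CPM, while Cs040 had 0.82 and Cs147 0.88, both under the early library median of 1.31. Its level in CN 113662 therefore rests on 1 library.

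Csa05g009020.1 and Csa11g052240.1 were among the 5 genes with the highest late means. Csa05g009020.1 had 155, 192, 166 and 106 CPM in the late accessions in the same order, against an early median of 19.9 and maximum of 77.8 CPM in CN 111331. Its libraries overlapped: Cs010 had 55.4 and Cs040 9.27 CPM, while the early libraries S001C2D and Cs046 had 147 and 130 CPM. Csa11g052240.1 had 356, 179, 334 and 176 CPM against an early median of 69.5 and maximum of 105 CPM, and its 11 late libraries ran from 94.1 CPM in Cs040 to 393 CPM in Cs038.

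The other 3 of the 5 highest were close to the limit of the rule. Csa15g002100.1 had 482, 432, 628 and 371 CPM in CN 113660, CN 113691, CN 113692 and CN 113662, and CN 111331 reached 369. Csa17g091760.1 had 259, 131, 270 and 114 CPM against at most 103, and Csa14g041640.1 had 265, 141, 119 and 68.0 CPM against at most 62.5. For the last of these 3, the late mean of 148 ± 83.4 CPM (SD, n = 4) was 4.07 times the early mean of 36.5 ± 10.5 (SD, n = 44).

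A group of genes rose and fell together across the early accessions, which the rule compared only by their highest value. Csa15g034710.1 and Csa15g034720.1 are adjacent loci on chromosome 15, and Csa19g031340.1 and Csa19g031350.1 are adjacent loci on chromosome 19. Over the 44 early accessions Spearman's rho was 0.86 between Csa15g034710.1 and Csa19g031340.1, 0.70 between Csa15g034720.1 and Csa19g031350.1, 0.67 within the chromosome 15 pair and 0.70 within the chromosome 19 pair. Csa01g025360.1 had a rho of 0.82 with Csa19g031340.1 and 0.74 with Csa03153s010.1. Over all 1711 pairs of the 59 genes the median rho was 0.090 and 27 pairs exceeded 0.6. These points share libraries and depth, reads of near-identical copies may have been split between them by the counting, and the values are a description. The early accessions also differ in their share of libraries of code series Cs, treated below. Csa01g025360.1 and Csa15g034710.1 were higher in Cs libraries (log2 difference 0.47 and 0.46). Whether the rho values follow the series was not tested, and none are given for pairs of other rows.

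In the late accessions, Csa15g034710.1 had 21.8, 23.8, 16.5 and 18.0 CPM in CN 113660, CN 113691, CN 113692 and CN 113662 against an early median of 4.06 and maximum of 8.45. Csa15g034720.1 had 9.52, 8.20, 5.23 and 4.50 CPM against an early maximum of 2.81. On chromosome 19, Csa19g031340.1 had 14.7, 7.55, 5.23 and 8.20 CPM against at most 4.09, and Csa19g031350.1 had 13.04, 7.18, 4.63 and 4.36 CPM against at most 3.94. CN 113660 was the highest late accession for 3 of these 4 genes and CN 113691 for Csa15g034710.1. The early library Cs046 had 14.7, 5.41, 7.14 and 10.8 CPM of the 4 genes, within the range of the late libraries for each, and Cs008 of CN 113692, the shallowest late library, had 0 reads of both chromosome 19 genes.

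The libraries of the late accessions all carry codes of series Cs, while the early accessions also have libraries of other series, so the 59 genes were examined for a difference that follows the code series. What separates the series is not stated. In 42 Cs and 56 other libraries of 31 early accessions that have both, with the accession as a block, 50 of the 59 genes were tested and 25 were higher and 2 lower in Cs libraries (edgeR's quasi-likelihood test, adjusted p under 0.05). Of all 40234 rows tested, 13.6% were called higher and 12.9% lower. The median log2 difference was 0.21 over the 50 genes and -0.01 over all rows. The largest was that of Csa09g086500.1 (log2 difference 0.66, SE 0.10, adjusted p = 1.3e-06), followed by Csa11g104770.1 (0.54, SE 0.14, adjusted p = 0.0032) and Csa01g025360.1 (0.47, SE 0.17, adjusted p = 0.039). Csa03g060350.1 (-0.58, SE 0.16, adjusted p = 0.0045) and Csa09g047930.1 (-0.33, SE 0.079, adjusted p = 0.0012) were lower in Cs libraries.

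These genes with a series difference mostly stood near the limit of the rule, as did most of the 59. Csa09g086500.1 had 75.7, 66.4, 78.9 and 52.9 CPM in the late accessions in the order used above, against an early mean of 34.1 ± 7.34 (SD, n = 44) and maximum of 48.8. Csa11g104770.1 had 4.72, 6.01, 5.43 and 6.82 CPM against at most 4.66. Of the 25 genes that were higher in Cs libraries, 22 had a ratio of lowest late to highest early CPM under 1.1. Of all 59 genes, 39 had such a ratio. The genes not tested for the series include Csa03153s010.1, Csa13g011890.1, Csa15g034720.1 and Csa18g002530.1, with ratios of 1.43 to 3.90. Of these 25, 2 lay above every early accession when only Cs libraries were summed. With Cs libraries alone, in which 34 early accessions remain, 22 of the 59 genes still lay above every early accession. They include all 10 with the largest ratio and 8 of the 39 with a ratio under 1.1. In that setting the rule took 43 rows. The other 37 were passed by 1 or more of these early accessions. In edgeR's test of late minus early on Cs libraries alone, 44 of 58 genes tested were called higher, beside 3.42% of all 47745 rows, and of the 37 genes 36 were tested, 22 were called and the median log2 difference was 0.64. These values rest on the late libraries that chose the genes and are a description.

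**Figure D4:**
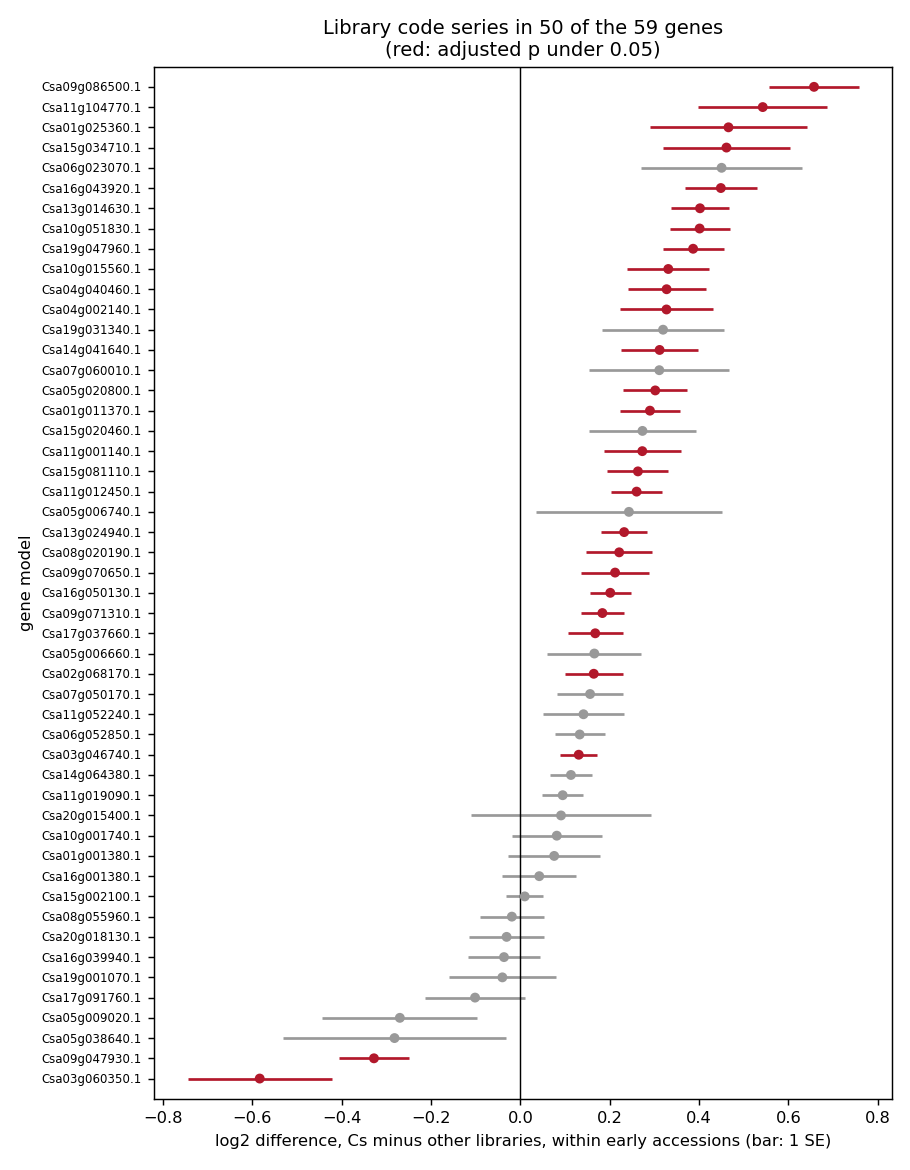
The log2 difference between Cs libraries and other libraries within early accessions for the 50 genes tested, with bars of 1 SE. Red points passed an adjusted p of 0.05, 25 of them to the right of 0 and 2 to the left, and the largest difference is 0.66 for Csa09g086500.1.

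Csa03g060350.1, one of the genes lower in Cs libraries, had 23.4, 19.5, 26.4 and 33.8 CPM in CN 113660, CN 113691, CN 113692 and CN 113662, and CN 113672 reached 18.4. Its libraries were spread widely within CN 113662, with 102 CPM in Cs035, 15.9 in Cs147 and 4.91 in Cs040. S001C2D had 51.3 CPM, more than 10 of the 11 late libraries. The gene lies 6 gene loci from Csa03g060290, a copy of SPL4, which in Arabidopsis promotes the change to flowering. The levels of this SPL4 copy overlapped, with 0.67 to 4.43 CPM in the late accessions and 0.09 to 4.01 CPM in the early ones. Csa09g047930.1 had 76.7, 67.9, 46.5 and 66.0 CPM against an early maximum of 42.1 and was likewise highest in Cs035 within CN 113662, with 158 CPM in Cs035, 40.6 in Cs040 and 35.04 in Cs147.

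Summed over all its libraries, CN 113672 held the highest early level most often. It did so for 9 of the 59 genes (15.3%), while it held the highest early level for 3.03% of the 50375 rows. CN 113717 did so for 6 genes (10.2%, against 1.28% of rows), and CAM 219, CN 111331 and CN 113682 for 4 each. S001C2D was the highest early library for 7 genes and Cs046 for 6. The levels of CN 113672 entered the rule as part of the early maximum, so these counts are a description. With Cs libraries alone, CN 113669 was the highest of the 34 early accessions for 8 genes, CAM 219 and CN 111331 for 7 each and CN 113672 for 3. Without CN 113672 the rule took 77 rows, all 59 among them.

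The 4 late accessions did not take like shares of the extremes. CN 113692 was the highest of the 4 in 30 of the 59 genes and CN 113660 in 20, while CN 113662 was the highest in 2 and the lowest in 28. Over all 50375 rows CN 113692 was the highest in 29.5%, CN 113660 in 21.9% and CN 113662 in 29.5%, and CN 113662 was the lowest in 25.1%. The lowest late value decided membership, and CN 113662 also holds Cs040.

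Flowering time was tested where the rule had not used it. Among the 44 early accessions, whose flowering times span 43 to 47.9 days, 57 of the 59 genes were tested for a slope and 0 passed an adjusted p of 0.05 in edgeR or in DESeq2, beside 0.0216% of all rows called rising. At an unadjusted p under 0.05 there were 6, and 12.7% of all 50816 rows. The steepest slope was that of Csa01g025360.1 (0.29 log2 per day, SE 0.081, edgeR adjusted p = 0.16). Between the latest accessions, CN 113660 and CN 113691, and the other late pair, CN 113692 and CN 113662, 0 of the 59 genes passed in edgeR or DESeq2, beside 0.219% of all 53812 rows called in either direction. At an unadjusted p under 0.05 there were 4, and 9.37% of all rows. Fitted log2 differences between the pairs ran from -2.74 (SE 1.02, edgeR adjusted p = 0.33) for Csa13g011890.1 to 2.09 (SE 0.64, edgeR adjusted p = 0.18) for Csa17g049910.1. With 2 accessions a pair, differences of that size did not pass. The fit held all 48 accessions with the 44 early ones as a group of their own, so its spread came mostly from them. The early medians of these 2 genes were 0.081 and 0.41 CPM. Csa17g049910.1 had 14.0, 9.23, 5.03 and 1.02 CPM in CN 113660, CN 113691, CN 113692 and CN 113662, against an early maximum of 0.95 CPM.

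The 59 genes were spread over 19 of the 20 chromosomes by their IDs, with 6 each (10.2%) on chromosomes 5 and 15, which hold 4.87% and 4.4% of the loci with a kept row, 5 (8.47%) on chromosome 11, which holds 7.99%, and 0 on chromosome 12, which holds 4.49%. None lay within 10 gene loci of a row that was lower in every late accession, while 5.6% of other loci with a kept row did. The nearest, Csa14g041640.1 and Csa17g049910.1, lay 11 loci from such a row. Within 50 loci 8 of the 59 (13.6%) did, against 24.2% of other loci. Loci within 5 gene loci of the 59 were examined with these genes left out. Of 354 rows tested there, 35 (9.89%) were higher and 31 (8.76%) lower in the late accessions, against 6% and 8.28% of all rows. Within 2 loci 10.4% were higher, and within 10 loci 7.70%. Those with the largest log2 differences included Csa17g049900.1 beside Csa17g049910.1 (3.18, SE 0.36, adjusted p = 2.1e-08) and Csa20g015410.1 beside Csa20g015400.1 (2.77, SE 0.27, adjusted p = 3.5e-10), both chosen after their values were seen. Since no source gives the strand used in counting, reads of overlapping or antisense neighbours cannot be told apart.

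The late mean of Csa20g015410.1 was 14.5 ± 9.59 CPM (SD, n = 4) and its early mean 2.21 ± 0.98 (SD, n = 44). The member next to it, Csa20g015400.1, had 20.4, 21.98, 6.84 and 14.5 CPM in CN 113660, CN 113691, CN 113692 and CN 113662, and CN 113672 reached 6.76. The gap in Csa20g015400.1 is therefore set by CN 113692 on the late side and CN 113672 on the early side.

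On chromosome 5, 3 of the 59 genes lie within 23 consecutive gene loci. Csa05g006740.1 had 17.5, 18.6, 33.4 and 29.1 CPM in CN 113660, CN 113691, CN 113692 and CN 113662 against at most 15.3, and Csa05g006880.1 had 12.1, 4.40, 16.3 and 3.63 CPM against at most 3.18. Of the 25 other rows tested from 10 loci before the first to 10 loci past Csa05g006930.1, 7 were higher and 2 lower in the late accessions. Of all rows tested, 6% were higher and 8.28% lower. The end of this stretch was set by Csa05g006930.1, which is itself among the 7, so the count is a description. Csa05g006790.1 had 45.5 ± 31.04 CPM (SD, n = 4) against 11.2 ± 5.52 (SD, n = 44, log2 difference 2.03, SE 0.31, edgeR adjusted p = 8.8e-06), with 83.3 and 58.2 CPM in CN 113692 and CN 113662 and 17.5 and 22.9 CPM in the other pair. Csa05g006860.1 had 25.6 ± 6.07 CPM against 12.6 ± 3.50 (log2 difference 1.07, SE 0.18, edgeR adjusted p = 4.1e-05). Csa05g006910.1, 3 loci past Csa05g006880.1, went the other way with 131.5 ± 124 against 783 ± 345 CPM (log2 difference -2.54, SE 0.47, edgeR adjusted p = 1.9e-04). It is a gene of the flowering time module, which was picked for its negative correlation with flowering time. These neighbours were chosen for display after their values were seen.

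**Figure D5:**
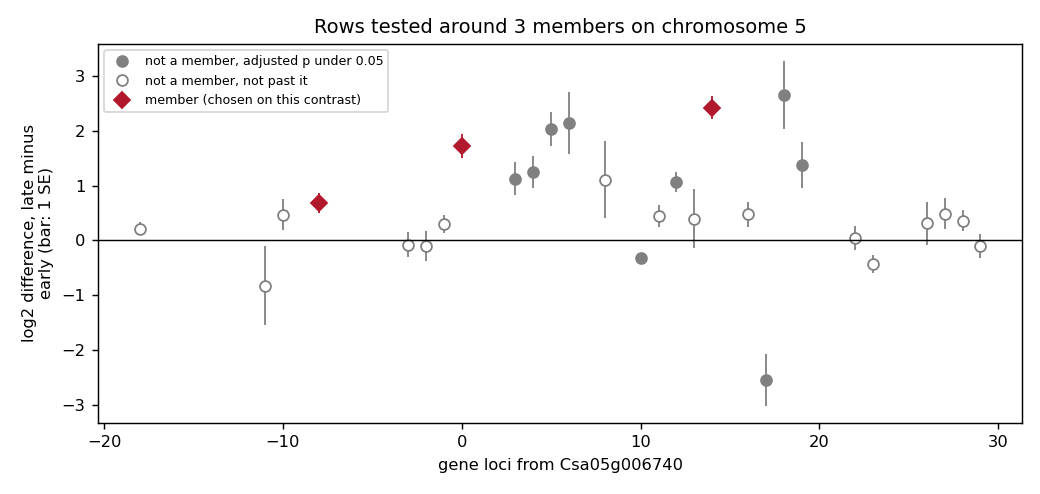
Log2 differences between the late and early accessions, with bars of 1 SE, against the number of gene loci from Csa05g006740. Red diamonds are the 3 genes among the 59, filled grey points passed an adjusted p of 0.05 and open points did not. Of the grey points 7 lie above and 2 below 0 past the threshold.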

How the data were processed

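Leaf RNA libraries (TruSeq, paired-end HiSeq) were counted per gene model. By the submitters' processing notes, the authors used Trimmomatic 0.32 for trimming, STAR 2.7.10a for alignment and featureCounts 2.0.1 for counting. The deposited values are raw counts, not normalized or pooled. The genome build and the strand setting are not given in the sources used here, so no coordinates or sequences are printed. Libraries were assigned to accessions by their labels, the single Licalla library was left out of comparisons, and all 158 others were used. Shallow libraries weigh little in sums. A gene at 1 CPM is expected at 4.97 reads in the smallest summed accession, CN 113692 with 4968195 counts.

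Sums per accession were scaled to CPM for the rule and tested with edgeR 4.0.16 in R 4.3.3 (filterByExpr, TMM, glmQLFit and glmQLFTest, Benjamini-Hochberg adjusted p under 0.05 over all rows tested). SE is the absolute log2 difference divided by the square root of F. The code series was tested on libraries with at least 200000 counts with the accession as a block. DESeq2 1.42.0, limma 3.58.1 with voom, RLE scaling, other filters, library subsets and left-out accessions were alternatives. P-values set an estimate against a fitted spread. In tests on sums this was the spread between accessions, and in the code series test that between libraries of an accession, as labelled.

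The 59 genes, the gene lists and the tests were chosen with earlier results of these data known. Named were the 10 genes with the largest ratio of lowest late to highest early CPM, the 5 with the highest late mean, up to 3 per direction called in each contrast that the rule did not use, genes with another of the 59 within 5 gene loci, those in a gene list, and the 3 just inside and 3 just outside the rule. Other names were chosen after their values were seen. Floral repressor, floral promoter, vernalization, photosynthesis, root, flower, seed, defence and stress lists by symbol could not be matched to the gene IDs, which the reference table does not pair with symbols, and gave no result. Of the genes beside the flowering time SNPs, 5 were called higher and 2 lower of 22 tested, against 6% and 8.28% of all 52307 rows. The study picked these SNPs for their association with flowering time in these accessions, so the counts are a description.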

Additional observations from a re-analysis of the deposited data

Results flagged for a closer look

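In 4 of the 59 genes the value of 1 late accession was far from the other 3, by a gap past Dixon's 95% limit for 4 values, and chance alone gives such a gap in about 1 in 20 groups. Csa13g011890.1 had 39.9 CPM in CN 113692 and 2.53 to 8.86 CPM in the others. Csa01g001380.1 had 134.7 CPM in CN 113692 and 20.1 to 35.7 CPM in the others. Csa11g001140.1 had 20.9 CPM in CN 113692 and 13.4 to 13.8 CPM in the others. Csa15g020460.1 had 4.62 CPM in CN 113691 and 5.66 to 5.84 CPM in the others.

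The library of Licalla, an accession that is not among the 48 and has 1 library of 8286624 counts, was not used in any comparison. It lay above all 44 early accessions in 4 of the 59 genes, with 14.0 CPM for Csa05g020800.1 (early maximum 12.7), 35.7 CPM for Csa13g014630.1 (34.6), 9.53 CPM for Csa09g070650.1 (9.13) and 136.1 CPM for Csa11g012450.1 (129.9). For 40 of the 59 it lay above the early median. It has no replicate, and for Csa13g011890.1 it held 1 read.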

How the results depend on the processing

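The number of genes taken by the rule stayed within 1.5 times of 59 under 13 alternatives that keep all 4 late accessions, but which genes it took moved more: TMM totals took 62 with 47 of the 59, DESeq2 size factors 66 with 48, and Cs libraries alone 43 with 22. With 1 late accession left out the rule took 83 to 236 rows, the latter without CN 113662, the fewest without CN 113692, where Csa13g011890.1 fell under the minimum mean, 120 without CN 113660 and 94 without CN 113691. Late minus early calls over all rows fell from 7469 to 3356 with Cs libraries alone, where fewer accessions and rows were tested, and to 3878 to 6462 with 1 late accession left out (3878 without CN 113692, 4215 without CN 113660). Without Cs040 there were 7984. The flowering time slope and the difference between the late pairs called 0 of the 59 under every alternative run, and the code series called 26 to 30. The log2 differences of the named genes kept their sign under all alternatives run, and 5 of 154 moved by more than 1 SD of the late accessions. The rule put every late accession above every early one for these genes. Their sign was therefore largely set by the choice, above all where 1 late accession was left out, and this is a description. Alternatives without Cs040, S001C2D, CN 113672 or CN 111331, those without the accessions of extreme flowering time and the late minus early test on libraries with at least 200000 counts were chosen after seeing the data. No paired analysis was possible because the labels give no replicate numbers. A gene near 1 CPM rests on few reads per library, so levels of Csa17g049910.1 in CN 113662 (14 reads summed) are imprecise.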
